A study of Mus musculus with 11 samples.

Results

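Notch signalling was followed through 10 genes: the ligands Dll4, Jag1, Jag2 and Dll1, the receptors Notch1, Notch3 and Notch4, and the target genes Hes1, Hey1 and Hey2. The members were chosen by symbol from the gene column of the 11 count tables, and all 10 were present among the 26921 genes listed there. The tables held single cells from myelin-depleted brain cortex of C57BL/6 mice, captured in droplets and counted from the 3′ end of each transcript with unique molecular identifiers (UMIs). There were 4 juvenile libraries (postnatal day 10), 3 adult libraries (7 to 11 weeks), 2 aged libraries (18 months) and 2 libraries from mice at the peak of experimental autoimmune encephalomyelitis (EAE). EAE was induced in 7- to 11-week-old females with the MOG35–55 peptide in Complete Freund's Adjuvant together with pertussis toxin. The other groups were untreated, so that peptide, adjuvant, toxin and disease cannot be told apart. Juvenile and adult libraries drew on pools of 6 mice each, aged and EAE libraries on pools of 3. The sources do not say whether libraries of a group came from separate pools. P-values therefore measure only the spread between these libraries, which may be technical.

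Notch receptors span the membrane and are activated by Delta-like or Jagged ligands on a touching cell, which leads to cleavage of the receptor. The freed intracellular part enters the nucleus, joins the DNA-binding protein RBPJ and switches on repressor genes of the Hes and Hey families. In blood vessels, Dll4 and Notch4 are known as endothelial genes tied to arterial fate and to the restraint of sprouting, Jag1 is made by both endothelium and vessel wall, and Notch3 is the receptor that smooth muscle cells and pericytes need for their maintenance. Astrocytes and their precursors also use Notch receptors and Hes genes.

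After filtering, 50625 of 54646 barcodes were kept and 49518 fell into 14 named cell types. Among them were 21062 endothelial cells (ECs), 1501 mural cells and 1297 astrocytes. Mural cells were pericytes, smooth muscle and smaller parts that were set aside when subtypes were named or given no subtype. Library totals were 15755504 to 34326349 UMIs. Pairs of libraries shared 10 to 113 cell barcodes, where 9.27 to 91.4 were expected if barcodes were independent. The endothelial, mural, astrocyte and microglia marker lists were highest in the types or subtypes they name, but choroid plexus transcripts were found in all of them: the 6 choroid plexus markers summed to 49757, 18056 and 19219 UMIs per 1e6 summed UMIs (CPM) in the ECs of Adult 1, 2 and 3 and to 3744 to 8707 CPM in the ECs of the other 8 libraries. Adult 1 stood apart, since 80.5% of its ECs fell in clusters that no marker list named, against 4.50 to 17.4% elsewhere. In ECs, 4 hemoglobin genes summed to 22184, 1196 and 1322 CPM in Adult 1, 2 and 3. They summed to 840 to 4540 CPM in juvenile, 13852 and 9868 in aged and 1782 and 1183 in EAE ECs. In mural cells of Adult 1, 2 and 3 they summed to 20817, 240 and 305 CPM. The part of these transcripts in the results was not tested. Some library pairs were close to each other: the variance of EC counts was 1.40 times that of sampling for Adult 2 and 3, and 1.88 to 2.5 times for Juvenile 1 and 2, Juvenile 3 and 4, Aged 1 and 2, and EAE 1 and 2, against 11.5 or more for the other pairs. The labels list these libraries as separate samples and every ratio was above sampling noise (a ratio of 1), so they were counted separately, although such a ratio does not show that a close pair came from separate pools of mice. With the close pairs summed into 1 unit, 30 of 50 results in ECs, mural cells, astrocytes, subtypes and their differences were lost, and the losses are given with the results. Summing left 2 juvenile, 2 adult, 1 aged and 1 EAE units, so that a lone unit was then assumed to vary like the other groups.

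Dll4, the Delta-like ligand of endothelium (GRCm38, chr2:119325784-119335962), was an EC transcript in each library. Its level in ECs was 103, 106, 103 and 104 CPM in the juvenile libraries, 77, 133 and 127 in the adult, 69.7 and 69.5 in the aged and 97.4 and 97.4 in the EAE libraries. Mural cells, the next type in order, ranged from 1.9 to 30.5 CPM, so that no library overlapped. With each cell thinned to 1500 UMIs, a median of 13.4% of ECs held a Dll4 UMI (30.7% unthinned, median depth 2821 UMIs), against 0.609% of microglia (1.14% unthinned, median depth 2932), a type that should lack it. Dll4 was higher in arterial than in venous ECs in 10 of 10 libraries that had both, with a median ratio of 9.10. Fenestrated ECs reached at least 10 cells in Juvenile 1 and 2 (16 and 11 cells), where their Dll4 was 333 and 464 CPM, above arterial ECs of the same libraries. Dll4 was higher in arterial ECs than in arterial-side capillary ECs (CapA) in 9 of 11 libraries, the exceptions being both EAE libraries, and higher in venous-side capillary ECs (CapV) than in venous ECs in 10 of 10. Between the capillary sides, CapA was above CapV in 8 of 11 libraries (median ratio 1.27), the exceptions being Adult 1 and both EAE libraries. In EAE the highest of the 4 subtypes was CapV, at 98.8 and 93.1 CPM, above CapA at 92.5 and 85 and arterial ECs at 56.2 and 62.

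Jag1, a Jagged ligand with roles in arteries and in smooth muscle coverage (chr2:137081456-137116644), was shared between mural cells and ECs. Mural cells held 291, 389, 237 and 278 CPM in the juvenile, 165, 324 and 318 in the adult, 104 and 241 in the aged and 279.9 and 187 in the EAE libraries. ECs held 140.3, 159, 108 and 99.8 CPM, 87.3, 108 and 117, 141 and 128 and 94 and 88.2 in the same order. Mural cells were higher in 10 of 11 libraries, though the ranges of both types overlapped. Aged 1 was the library in which ECs were higher. Within ECs, Jag1 set arteries apart: arterial ECs ranged from 450.3 to 981 CPM and were above CapA ECs in 11 of 11 libraries, with a median ratio of 5.14, whereas CapV exceeded venous ECs in only 4 of 10. In the mural lineage, smooth muscle was above pericytes in 9 of 11 libraries (median ratio 1.51). After thinning, Jag1 UMIs were found in a median of 50% of arterial ECs, 23.3% of mural cells and 0.66% of microglia.

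Jag2, the second Jagged ligand (chr12:112907819-112929776), was an EC transcript with 23.8 to 44.6 CPM in ECs and 0 to 7.57 CPM in mural cells, without overlap. Of all types, ECs were highest in 10 of 11 libraries, the exception being Aged 2, where 1 UMI in neurons or neuroblasts gave a higher value. It was higher in CapA than in CapV ECs in 11 of 11 libraries (median ratio 1.71) and in arterial than in CapA ECs in 10 of 11 (median ratio 1.29). Dll1, another Delta-like ligand (chr17:15367354-15376872), was low in vessels: ECs ranged from 1.61 to 9.1 CPM, and pericytes held no UMI in 11 libraries. Neurons or neuroblasts had the highest median of Dll1, 48.1 CPM, with a range of 0 to 80.7 that overlapped the ependymal range of 8.34 to 20.4. Among ECs, Dll1 was higher in arterial than in CapA cells in 11 of 11 libraries, and in venous than in CapV cells in 10 of 10, so that it was lowest in CapV ECs.

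Among the receptors, Notch3 (chr17:32120820-32166852) belonged to mural cells. Its level there was 532, 532, 564 and 452 CPM in the juvenile libraries, 525, 634 and 531 in the adult, 434 and 579.9 in the aged and 522 and 423 in the EAE libraries. Astrocytes came next with 0 to 47.1 CPM and ECs held 0.646 to 6.28 CPM, both far below the lowest mural library. Pericytes and smooth muscle were not ordered, with smooth muscle higher in 6 of 11 libraries. Notch3 UMIs were found in a median of 48.3% of mural cells thinned to 1500 UMIs and in 0.203% of microglia. Cells with fewer UMIs were left out, which for mural cells were 2 of 530 juvenile, 176 of 426 adult, 179 of 282 aged and 141 of 263 EAE cells.

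Notch4, the endothelial receptor (chr17:34564268-34588503), ranged from 57.6 to 84.4 CPM in ECs and from 3.61 to 64.3 CPM in mural cells, and ECs were higher in 11 of 11 libraries. It was graded along the vessel like Dll4: arterial ECs exceeded venous ECs in 10 of 10 libraries with a median ratio of 5.25, and CapA exceeded CapV in 10 of 11 with a median ratio of 1.34. After thinning, a median of 9.45% of ECs and 1.34% of microglia held a Notch4 UMI. Notch1, the receptor used most widely across tissues (chr2:26457903-26516663), was at a low level in many types and had no clear order. Its ranges were 0 to 95.7 CPM in neurons or neuroblasts, 9.2 to 28.1 in ECs, 5.89 to 48.2 in astrocytes and 0 to 67.2 in mural cells, and each overlapped its neighbours.

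The 3 target genes split between cell types. Hes1, a transcriptional repressor (chr16:30064384-30067796), was found in every type, with medians over libraries of 941 CPM in ECs, 656 in fibroblast-like cells and 632 in mural cells, and with overlapping ranges. Unlike the ligands, Hes1 was lower in arterial than in CapA ECs in 11 of 11 libraries (median ratio 0.664). Hey1, a repressor linked to arterial fate (chr3:8663359-8667256), was highest in ependymal cells in 5 of the 6 libraries that had enough of them, with a range of 123 to 217 CPM. ECs ranged from 86.8 to 109 CPM, below each ependymal value, while astrocytes ranged from 42.8 to 137 CPM and were above ependymal cells in Juvenile 1. In ECs, Hey1 fell steeply from artery to vein, being higher in arterial than in venous ECs in 10 of 10 libraries with a median ratio of 43.9. Hey2, the related repressor of smooth muscle (chr10:30832359-30842801), was a mural transcript at 98.9, 98.6, 94 and 61.4 CPM in the juvenile, 58.6, 75.2 and 41.5 in the adult, 54.2 and 42.3 in the aged and 83.2 and 72.3 in the EAE libraries, above the choroid plexus epithelium at 9.2 to 26.9. Within ECs Hey2 was arterial, higher than in CapA ECs in 11 of 11 libraries, at 4.23 to 66.2 CPM.

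**Figure D1:**
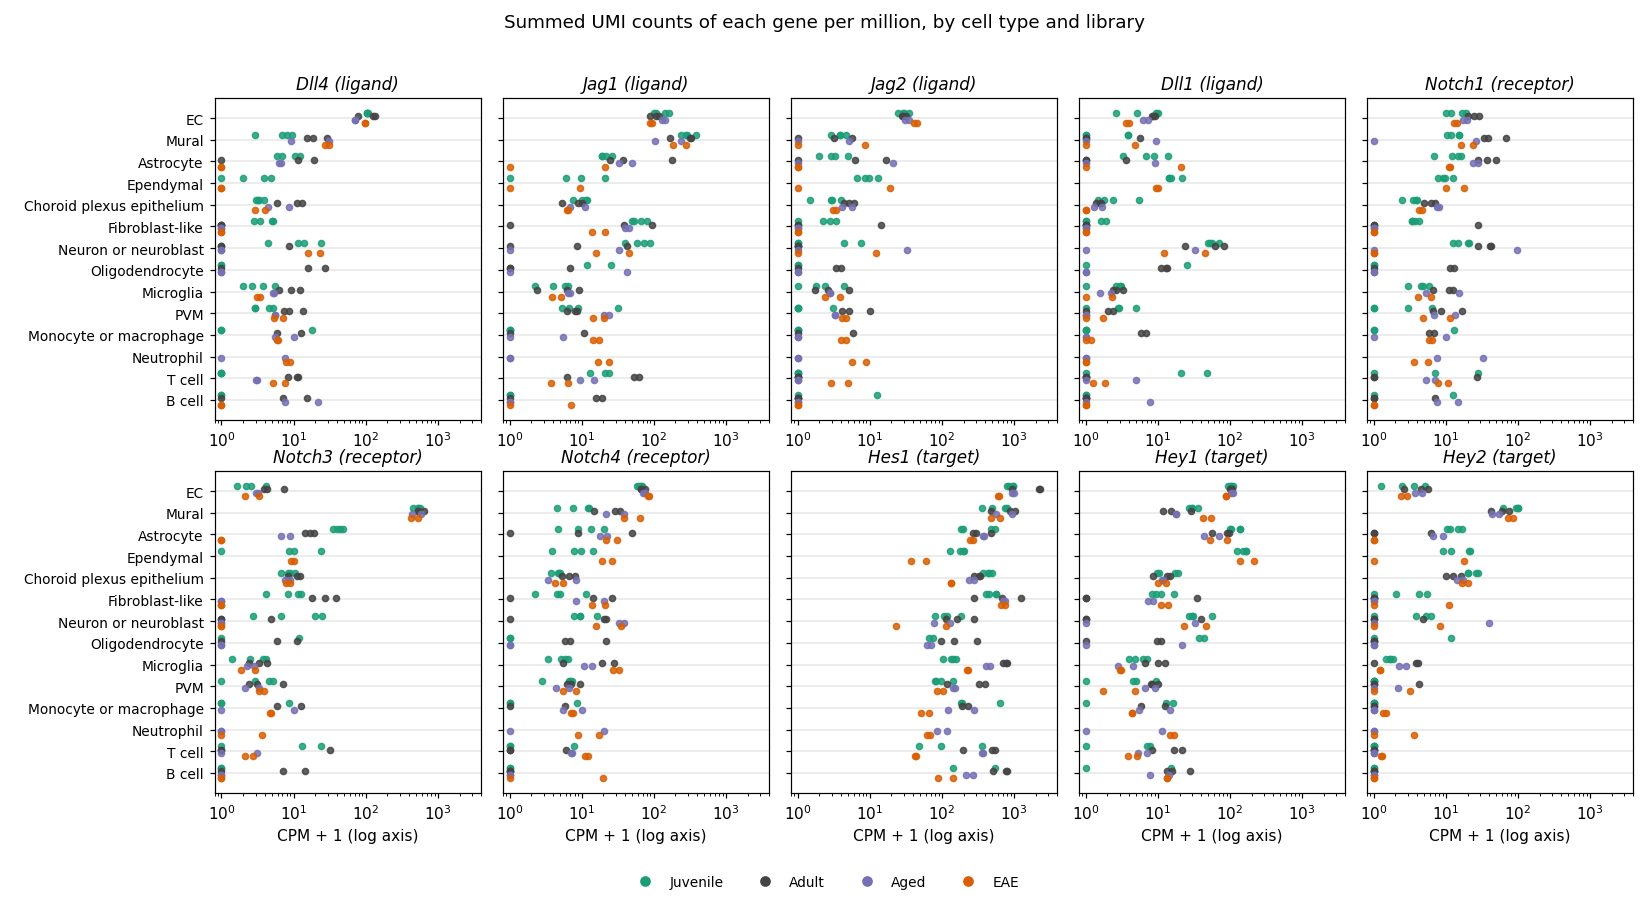
Level of each gene (CPM plus 1, log axis) in 14 cell types, with 1 point for each library that had at least 10 cells of the type, coloured by condition. Notch3 and Hey2 were highest in mural cells and Dll4 and Notch4 in ECs in each library, Jag2 was highest in ECs and Jag1 in mural cells in 10 of 11 libraries, and ECs had the second highest median of Jag1.

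The TGGGAA core that RBPJ binds was searched on both strands within 250 bases before the RefSeq transcription start (GRCm38.p6). Promoters of 8 of the 10 members were in the table used, Hes1 and Hey1 being absent. Of these 8, 1 held the letters, Hey2, where 21.59% of 32851 promoters did. Further Notch targets were searched as well. Hes5, which is described below, held the letters at 2 places, Nrarp held none, and Heyl had no promoter listed. The stretches of 30 bases around these matches are shown because Hey2 and Hes5 are targets with a match whose level differed between cell types or ages. Capitals mark the match, and TTCCCA is the same core read on the other strand.
Hey2, chr10:30842973-30843002, minus strand, 207 bases before the start: tgcgcggtggcaTTCCCAcgcctctgccaa
Hes5, chr4:154960685-154960714, plus strand, 226 bases before the start: agggcgagcgcgTTCCCAcagcccggacat
Hes5, chr4:154960829-154960858, plus strand, 82 bases before the start: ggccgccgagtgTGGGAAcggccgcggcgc
A match is a description of the letters in this window and says nothing about binding in these cells.

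**Figure D2:**
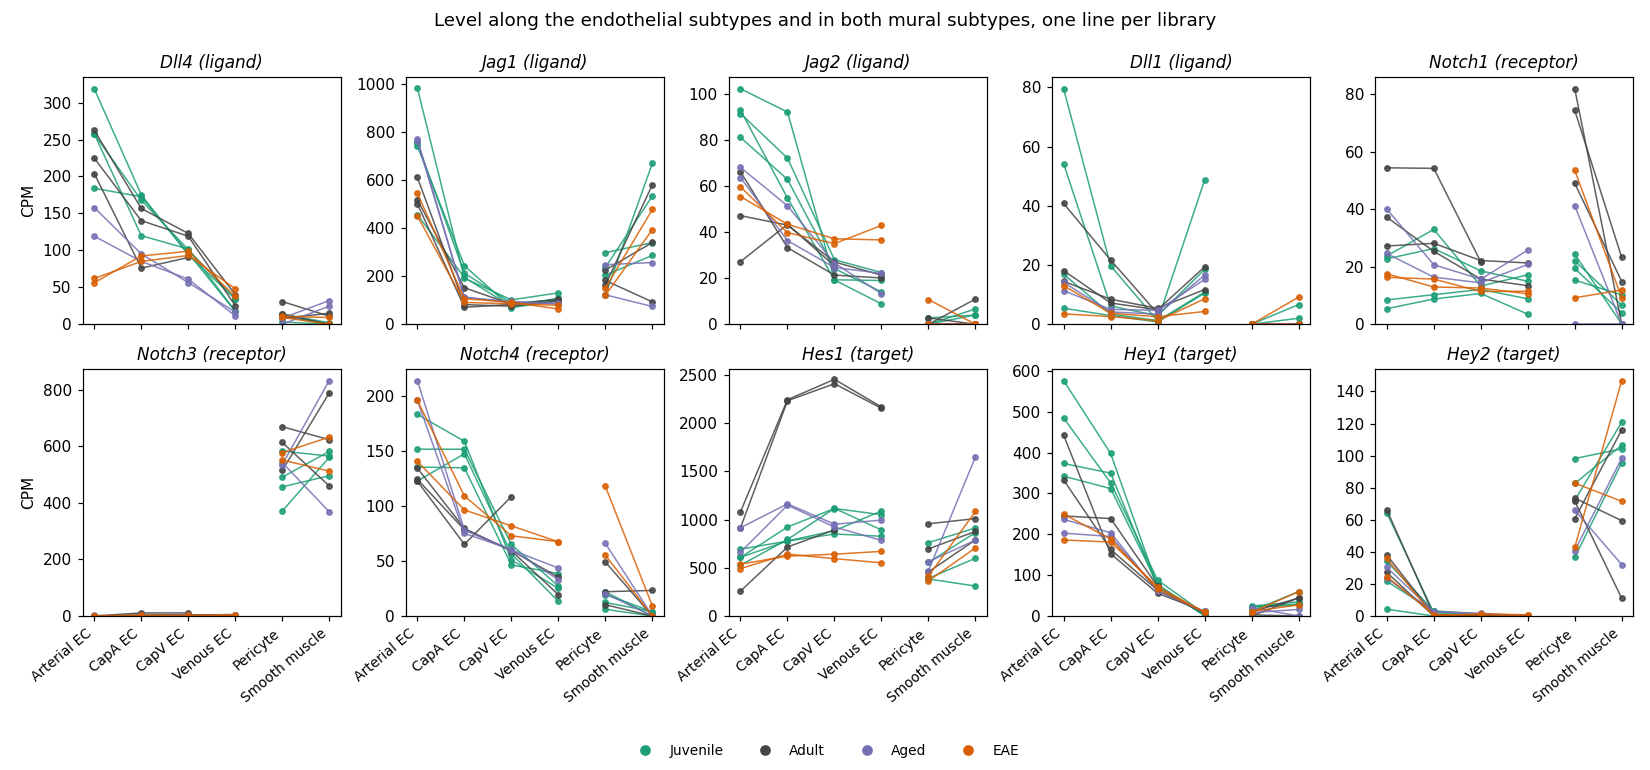
CPM of each gene along arterial, CapA, CapV and venous ECs and in pericytes and smooth muscle, with 1 line for each library, coloured by condition. Dll4, Jag1, Jag2, Notch4 and Hey1 fell from arterial to venous ECs, Hes1 did not, and Notch3 was near 0 in each EC subtype.

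The genes most like each member were taken by the correlation of mean log2(CPM + 1) over 20 populations that share libraries, and are given as a description. They were sought among 8152 genes whose mean over libraries reached 50 CPM in at least 1 population. Dll4 was most like Arhgef15 (r = 0.958), Sox18 (0.946) and Card10 (0.944). Jag2 was most like Mecom (0.952), Eogt (0.943) and Mall (0.939), and Jag1 was most like Hrct1 (0.877), Rheb (0.876) and Tbx3 (0.874). Notch3 had the pattern of Ednra (0.952), the endothelin receptor of smooth muscle, Itga7 (0.951) and Cox4i2 (0.949), while Notch4 had that of Ptprg (0.923), Ptprm (0.922) and Tie1 (0.902), an endothelial receptor kinase. Hes1 was nearest to Tmem204 (0.908), Smtn (0.90) and Hmg20b (0.885), Hey1 to Lama3 (0.768), Rapgef3 (0.763) and Plscr4 (0.762), and Hey2 to Ntn4 (0.868), Arhgef17 (0.856) and Fads3 (0.847). Notch1 and Dll1 had means over libraries under 50 CPM in each population, although single libraries were higher, and were not compared.

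The 3 contrasts set juvenile, aged and EAE libraries against the same adult libraries, so they are not independent, and each is given on its own. They were tested on summed UMIs with edgeR's quasi-likelihood test and Benjamini-Hochberg adjustment over all genes, and fold changes are log2 with their standard errors (n = 4, 2 and 2 against 3 libraries unless fewer had at least 10 cells). In ECs all 10 members were tested and 4 passed in juvenile mice, where 48.1% of 13783 genes did, 1 in aged mice, where 9.42% did, and 4 in EAE, where 32.2% did. The share of members called was thus near or below that of all genes in juvenile and aged ECs and close to it in EAE. The members' median log2 fold changes were −0.19, −0.28 and −0.41, against −0.02, −0.03 and −0.02 over all genes.

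In EAE, ECs had more Jag2 and Notch4 and less Hes1 and Notch1 transcript than in adult mice. Jag2 was at 40.3 and 44.6 CPM in the EAE libraries and at 28.1, 27.1 and 31.2 in the adult, without overlap, which gave 0.71 ± 0.12 (SE, adjusted p = 0.000703) as log2 fold change. Notch4 was at 84.4 and 83.1 CPM against 74.2, 65.6 and 66.2, also without overlap, and rose by 0.45 ± 0.09 (SE, adjusted p = 0.00171) on the log2 scale. TMM scaling shifted all genes upward by 0.16 on the log2 scale in this contrast, so that rises are smaller with library totals. Hes1 fell to 599 and 619 CPM in EAE from 929, 2246 and 2273 in the adult, with log2 fold change −1.42 ± 0.32 (SE, adjusted p = 0.00773). Adult 1 was far below Adult 2 and 3, lay within the juvenile range of 792 to 978 CPM and was just below both aged libraries (941 and 994 CPM). Notch1 was at 13.3 and 11.9 CPM against 28.1, 19.5 and 23.5, with log2 fold change −0.73 ± 0.22 (SE, adjusted p = 0.0228). Dll4 in ECs as a whole was −0.06 ± 0.16 (SE, adjusted p = 0.809), Jag1 −0.04 ± 0.16 (SE, adjusted p = 0.871) and Hey1 −0.08 ± 0.08 (SE, adjusted p = 0.477), none of them called. The calls for Hes1 were lost without EAE 1 or EAE 2, and those for Notch1 without Adult 1, Adult 3, EAE 1 or EAE 2, over ranges of −1.71 to −1.20 and −0.83 to −0.59. None of the 9 EC calls passed with the close library pairs summed (adjusted p = 0.0699 for Jag2, 0.202 for Notch4 and 0.332 for Hes1 in EAE).

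Aged ECs differed from adult ECs in Dll4, which was 69.7 and 69.5 CPM in the aged libraries, below each adult library (77, 133 and 127), with log2 fold change −0.72 ± 0.17 (SE, adjusted p = 0.021). Hes1 was −0.93 ± 0.31 (SE, adjusted p = 0.0931) and Jag1 0.35 ± 0.16 (SE, adjusted p = 0.187) in aged ECs, and neither passed. The Dll4 call was lost without Adult 2, Adult 3, Aged 1, Aged 2, EAE 1 or EAE 2, over a range of −0.90 to −0.56. It was lost as well with the replicate number as a block. In juvenile ECs, Notch1 was 15.8, 18.2, 10.7 and 9.2 CPM, below each adult library (28.1, 19.5 and 23.5), and fell with log2 fold change −0.72 ± 0.19 (SE, adjusted p = 0.00757). Hes1 fell with −0.92 ± 0.25 (SE, adjusted p = 0.0128), a call that was lost with the replicate number as a block. Jag1 rose by 0.37 ± 0.14 (SE, adjusted p = 0.0392) with overlapping groups (99.8 to 159 CPM against 87.3 to 117), a call that was lost without any of Juvenile 1, Juvenile 2 and the 7 adult, aged and EAE libraries (range 0.24 to 0.46). Notch3 passed as lower in juvenile ECs, at −1.19 ± 0.45 (SE, adjusted p = 0.0442), over a range of 0.646 to 6.28 CPM in all libraries. The 8 mural markers summed to 29.2 to 89.9 CPM in juvenile ECs and 74.0 to 219 CPM in adult ECs, with at most 1 of the 8 at 0 in a library, and their part in the Notch3 value was not tested. Without Juvenile 1, 3 or 4, Adult 1 or 2, or Aged 1 or 2, this call was lost too (range −1.66 to −0.87). With ECs of named subtypes alone, the juvenile calls for Hes1 (adjusted p = 0.0629), Jag1 (adjusted p = 0.345) and Notch3 (adjusted p = 0.106) were lost, and the other 6 EC calls were not. With library totals the juvenile Jag1 call was lost (adjusted p = 0.175).

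A change in all ECs can come with a change in the shares of subtypes, so that each subtype was tested on its own. Arterial ECs were 1.63, 5.09 and 5.69% of ECs in Adult 1, 2 and 3 and 1.82 and 2.08% in EAE 1 and 2. ECs given no subtype were 80.5, 4.50 and 4.62% in the adult libraries and 16.6 and 17.4% in EAE. A test within a subtype cannot show that its label covered the same cells in each condition, and this was not tested. DESeq2 did not call 15 of the 32 subtype results: Dll4 in aged arterial ECs, Hey1 in aged and EAE arterial ECs, Dll4 and Jag1 in aged and EAE CapA ECs, Notch1, Notch4 and Hey1 in EAE CapA ECs, Dll1, Notch4 and Hey1 in EAE CapV ECs, Jag2 in EAE venous ECs and Notch3 in juvenile pericytes. Adult 1 gave 14 arterial, 23 CapA and 121 CapV ECs and too few venous ECs (8) to be used, and the subtype values of adult mice rest mainly on Adult 2 and 3, which were close to each other.

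Arterial ECs had less Dll4 in both aged and EAE mice. Dll4 in arterial ECs was 319, 258, 258 and 184 CPM in the juvenile libraries, 204, 263 and 225 in the adult, 119 and 158 in the aged and 56.2 and 62 in the EAE libraries. The EAE libraries were below every other library, with log2 fold change −1.94 ± 0.26 (SE, adjusted p = 4.43e-07) against adult, or 0.261 times the adult level. This call held without any single library (range −2.03 to −1.82). The adjusted p was 0.000133 with the close pairs summed, where EAE was 1 unit against 2 adult units. In aged arterial ECs Dll4 was −0.87 ± 0.21 (SE, adjusted p = 0.0137), a call that was lost without Adult 2, Adult 3, Aged 1 or Aged 2 (range −1.08 to −0.66) and with the close pairs summed (adjusted p = 0.574). Hey1, the arterial target, was 245, 333 and 443 CPM in adult arterial ECs, 237 and 203 in aged and 249 and 186 in EAE, with log2 fold changes of −0.81 ± 0.21 (SE, adjusted p = 0.0331) and −0.69 ± 0.22 (SE, adjusted p = 0.0456). Both Hey1 calls were lost without Adult 2 or 3 or either aged library, the EAE call also without either EAE library (ranges −0.91 to −0.55 and −0.87 to −0.43), and neither passed in DESeq2 (adjusted p = 0.202 and 0.264) or with the close pairs summed (adjusted p = 0.903 and 0.633). The aged Hey1 call was lost with library totals as well. Of 9 members tested, 0, 2 and 2 passed in juvenile, aged and EAE arterial ECs, where 18.3%, 1.71% and 9.37% of genes did. In juvenile arterial ECs DESeq2 called 0 as well, at an unadjusted p under 0.05 edgeR gave 2, and Notch1 at −1.19 ± 0.47 (SE, adjusted p = 0.071) and Jag2 at 0.64 ± 0.26 (SE, adjusted p = 0.0785) were nearest to the threshold.

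CapA ECs of juvenile mice had more of 4 Notch genes than adult CapA ECs. CapA ECs made up 9.91, 8.02, 9.50 and 11.9% of ECs in the juvenile libraries and 2.68, 27.3 and 27.4% in the adult. Jag1, Hey1, Notch4 and Jag2 were each higher in CapA than in CapV ECs in at least 10 of 11 libraries. Whether the label covered the same part of the vessel at both ages was not tested. The CapA label covered a pair of clusters in unequal shares: the one not led by immediate early genes, which cells switch on within minutes of a stimulus or of tissue dissociation, held 86.4% of juvenile, 49.7% of adult, 56.7% of aged and 65.9% of EAE CapA ECs. Jag1 was 212, 191, 243 and 195 CPM in the juvenile libraries against 152, 70.5 and 81.7 in the adult, with log2 fold change 1.43 ± 0.13 (SE, adjusted p = 6.42e-15). Hey1 was 398, 326, 312 and 349.7 CPM against 239, 163 and 152, at 1.11 ± 0.11 (SE, adjusted p = 2.8e-13). Notch4 was 159, 151, 147 and 135 CPM against 65.1, 78.4 and 79.5, at 0.91 ± 0.13 (SE, adjusted p = 5.69e-08). For these 3 genes and for Jag2, at 0.82 ± 0.19 (SE, adjusted p = 0.000612), every juvenile library lay above every adult library. They passed without any single library, without the cluster led by immediate early genes, and with the close pairs summed (2 juvenile against 2 adult units), where the adjusted p was 4.09e-05 for Jag1, 0.00177 for Hey1, 0.0054 for Notch4 and 0.0485 for Jag2. Dll4 in juvenile CapA ECs was 0.12 ± 0.13 (SE, adjusted p = 0.536). In these cells 5 of 8 members tested passed in juvenile mice, 2 in aged and 6 in EAE, against 26.4%, 11.5% and 25.9% of genes, so that the shares of members were above those of all genes.

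CapA ECs of aged and EAE mice had less Dll4 and more Jag1 than adult ones. Dll4 was 75.9, 157 and 140.2 CPM in the adult libraries, 85.1 and 95.3 in the aged and 92.5 and 85 in the EAE libraries, with log2 fold changes of −0.71 ± 0.13 (SE, adjusted p = 3.53e-05) and −0.60 ± 0.13 (SE, adjusted p = 0.000135). Adult 1, with 23 CapA ECs, was below both groups, and Adult 2 and 3 above. Both Dll4 calls in CapA ECs held without any single library, but not in DESeq2 (adjusted p = 0.0998 and 0.114) nor with the close pairs summed (adjusted p = 0.713 and 0.487). Jag1 was 111 and 113 CPM in aged and 106 and 90.6 in EAE libraries, within the adult range of 70.5 to 152 CPM, at 0.49 ± 0.14 (SE, adjusted p = 0.00962) and 0.43 ± 0.14 (SE, adjusted p = 0.0147). The Jag1 calls were lost without Adult 2 or 3, the aged call also without either aged library, and the EAE call without EAE 1 (ranges 0.35 to 0.53 and 0.29 to 0.54). In EAE, Notch4 was 0.49 ± 0.13 (SE, adjusted p = 0.0019) and Notch1 −0.84 ± 0.26 (SE, adjusted p = 0.0111). Hey1 was 188 and 181 CPM in EAE, within the adult range of 152 to 239 CPM, at 0.30 ± 0.12 (SE, adjusted p = 0.0475). TMM scaling shifted all genes by 0.16 on the log2 scale in this contrast, and with library totals Hey1 was 0.19 (adjusted p = 0.206) and Jag1 0.32 (adjusted p = 0.0708). Without the cluster led by immediate early genes, the calls for Jag1 in aged (0.40, adjusted p = 0.124), Notch1 in EAE (−0.71, adjusted p = 0.0697) and Notch4 in EAE mice (0.33, adjusted p = 0.106) were lost. With all CapA ECs, these calls were lost without EAE 2 for Notch4, without Adult 3 or EAE 1 for Notch1, and without any of the adult 2 and 3, aged and EAE libraries for Hey1 (ranges 0.41 to 0.58, −0.97 to −0.70 and 0.22 to 0.33). With the close pairs summed, the Jag1 calls in aged and EAE mice (adjusted p = 1 and 0.729) and those for Notch4, Notch1 and Hey1 in EAE (adjusted p = 0.374, 0.238 and 0.846) were lost.

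CapV ECs, the most numerous subtype, had less Dll4 in aged mice. Dll4 was 94, 101, 102 and 96.3 CPM in the juvenile, 90.4, 123 and 119 in the adult, 61.1 and 56.4 in the aged and 98.8 and 93.1 in the EAE libraries. Both aged libraries were below all other libraries, at −1.0 ± 0.11 (SE, adjusted p = 2.75e-06), which passed without any single library. With the close pairs summed, which left 1 aged unit against 2 adult units, the adjusted p was 0.0487. In EAE, Dll4 was −0.15 ± 0.10 (SE, adjusted p = 0.295) in CapV ECs and 0.47 ± 0.28 (SE, adjusted p = 0.267) in venous ECs, beside its fall in arterial and CapA ECs, and the difference between subtypes was not tested. Jag2 rose in EAE in CapV ECs, from 25.3, 21.4 and 27.1 CPM in adult to 35 and 37.1 in EAE libraries, at 0.71 ± 0.15 (SE, adjusted p = 0.00119). In venous ECs it rose from 20.1 and 21.3 to 42.9 and 36.6 CPM, at 1.05 ± 0.31 (SE, adjusted p = 0.0115). Notch4 rose in venous ECs, from 35.2 and 19.4 CPM in Adult 2 and 3 to 67.4 and 67.5 in EAE, at 1.38 ± 0.27 (SE, adjusted p = 0.000133). The call held without any single library, but Adult 2 and 3 were the only adult venous libraries and form 1 unit when the close pairs are summed. In CapV ECs Notch4 was 81.9 and 72.9 CPM in EAE and 108, 59.6 and 59.2 in adult libraries, at 0.44 ± 0.14 (SE, adjusted p = 0.0195). Hey1 was 65.5 and 71.5 CPM in EAE, within the adult range of 55.5 to 72.3, at 0.33 ± 0.11 (SE, adjusted p = 0.0306). TMM scaling shifted all genes by 0.17 on the log2 scale in this contrast, and with library totals neither passed: Notch4 was 0.30 (adjusted p = 0.143) and Hey1 0.19 (adjusted p = 0.227). In juvenile mice Hey1 was 0.47 ± 0.10 (SE, adjusted p = 0.000688). The CapV label covered 3 clusters, of which the first held 24.4% of juvenile, 40.7% of adult, 44.9% of aged and 48.0% of EAE CapV ECs, another 49.0% of juvenile and 32.9% of adult cells, and the last 24.8 to 30.2% in each group. Their part in these values was not tested. Dll1 fell in juvenile CapV ECs, to 2.85, 1.11, 1.25 and 0.765 CPM (6, 3, 6 and 3 UMIs) from 3.62, 5.4 and 4.9 (1, 23 and 21 UMIs), at −1.78 ± 0.43 (SE, adjusted p = 0.00176). In EAE it fell to 1.18 and 2.55 CPM (6 and 13 UMIs), at −1.29 ± 0.45 (SE, adjusted p = 0.0334). Without Adult 2, Adult 3 or EAE 1 the EAE calls for Jag2 in venous ECs and Dll1 and Notch4 in CapV ECs were lost. Notch4 was lost also without EAE 2, and Hey1 without these or an aged library (ranges in order 0.95 to 1.16, −1.94 to −0.84, 0.34 to 0.52 and 0.24 to 0.39). With the close pairs summed, the EAE calls in CapV ECs were lost for Jag2 (adjusted p = 0.0793), Notch4 (adjusted p = 0.619), Hey1 (adjusted p = 0.605) and Dll1 (adjusted p = 0.372). The Jag2 call in venous ECs (adjusted p = 0.0581) and the juvenile CapV call for Hey1 (adjusted p = 0.147) were lost too, and Dll1 in juvenile CapV ECs was not (adjusted p = 0.0445). Of 9 members tested in CapV ECs, 2, 1 and 5 passed in juvenile, aged and EAE mice, against 45.6%, 13.8% and 30.2% of genes. Of 7 tested in venous ECs, 1, 1 and 3 passed, against 29.9%, 7.67% and 20.8%.

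**Figure D3:**
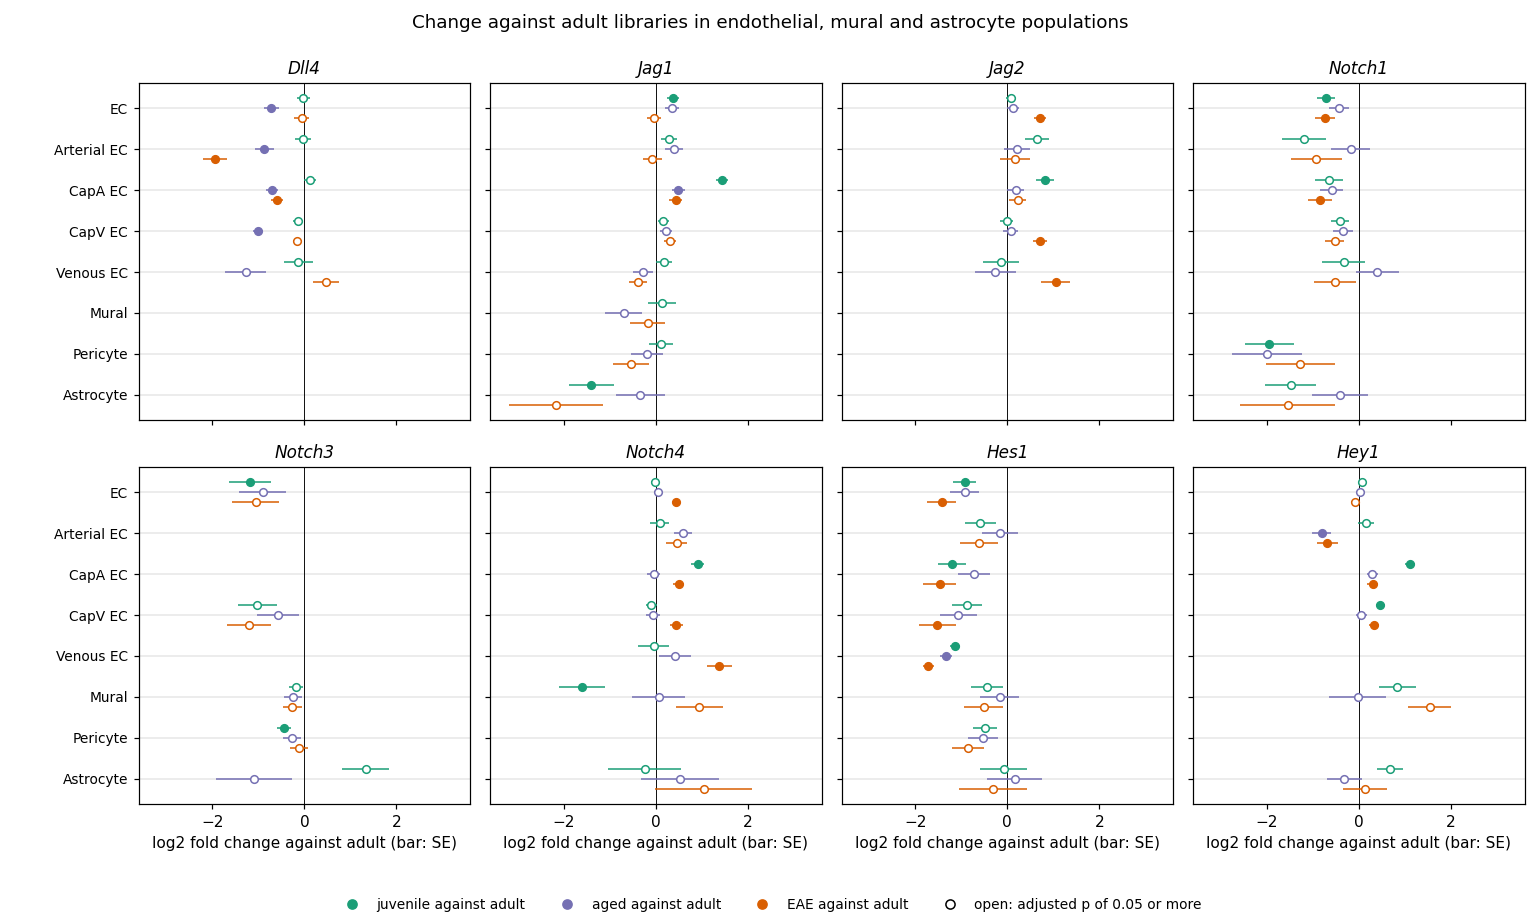
Log2 fold change against adult libraries (points, with standard errors as bars) of 8 Notch genes in ECs, mural cells, their subtypes and astrocytes, coloured by contrast, with open points for an adjusted p of 0.05 or more. Dll4 fell in aged ECs and in EAE arterial ECs, Jag2 and Notch4 rose in EAE ECs, and Jag1, Hey1 and Notch4 rose in juvenile CapA ECs, while Notch3 in EAE astrocytes, with 0 UMIs, is not drawn.

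In mural cells as a whole, Notch3 had log2 fold changes of −0.18 ± 0.16, −0.24 ± 0.20 and −0.26 ± 0.20 in juvenile, aged and EAE mice, none of which passed. Of 6 members tested, 1 passed in juvenile mice, where 29.2% of 5763 genes did, and 0 in aged and EAE mice, where 0.0347% and 5.21% did. DESeq2 gave the same counts, and at an unadjusted p under 0.05 the edgeR test gave 2, 0 and 1 members. The members' medians were −0.03, −0.21 and 0.11, against −0.04, −0.02 and −0.01 over all genes. The gene that passed was Notch4, at 6.66, 11.7, 11.4 and 3.61 CPM in juvenile and 32.5, 28.2 and 13.8 in adult mural cells, with −1.60 ± 0.49 (SE, adjusted p = 0.0212). The 6 EC markers moved with it: they summed to 218 to 437 CPM in juvenile, 1335 to 1597 in adult, 2568 to 2645 in aged and 4320 to 5158 in EAE mural cells, none of them at 0. Their part in the Notch4 value was not tested. The mix of subtypes differed too. Smooth muscle gave 89, 92, 29 and 17 of the 200, 193, 76 and 61 juvenile mural cells and 16, 20 and 29 of the 220, 105 and 101 adult ones. Its median of Notch4 over libraries was 0 CPM, against 22.0 in pericytes, and the part of this mix was not tested. The call was lost without Juvenile 1 or Adult 1 (range −1.89 to −1.28) and with the close pairs summed (adjusted p = 0.0631). In EAE mural cells Notch4 was 64.3 and 38.1 CPM, at 0.95 ± 0.51 (SE, adjusted p = 0.327). Hey1 in mural cells was 41.6 and 53.3 CPM in EAE against 10.8, 14.1 and 27.7 in adult, without overlap, at 1.54 ± 0.47 (SE, adjusted p = 0.0689). Of the 11 and 14 Hey1 UMIs in EAE 1 and 2, pericytes held 1 and 1 and smooth muscle 3 and 5. The others lay in mural cells that were set aside when subtypes were named (15 and 20 cells) or given no subtype (3 and 1 cells). Clusters were set aside for called doublets or for markers of another list, and these cells stayed in the mural and interaction fits. Within each subtype EAE and adult libraries overlapped. Pericytes had 10.7 and 9.2 CPM in EAE against 0 to 10.2 in adult, and smooth muscle 27.5 and 59.6 against 0 to 44.6. Hey2 was 0.58 ± 0.24 (SE, adjusted p = 0.0766) in juvenile mice.

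In pericytes alone, juvenile mice had less Notch1 and Notch3. Notch1 was 15.3, 19.4, 22 and 24.4 CPM in juvenile and 74.4, 49 and 81.9 in adult pericytes, without overlap, at −1.94 ± 0.52 (SE, adjusted p = 0.00382). Counts were low, with 72 Notch1 UMIs in the pericytes of all 11 libraries together, and Adult 2 and 3 gave 76 and 63 pericytes. The Notch1 call held in each refit without a library in which the gene was tested and with the close pairs summed (adjusted p = 0.00269). Without the pericyte cluster that held 44.7% of juvenile and 0.303% of adult pericytes, Notch1 was not among the genes tested, so that this check could not be made. Aged 1 held no Notch1 UMI, which allows up to 20.4 CPM, while the EAE libraries held 53.5 and 9.2 CPM. EC markers in pericytes summed to 201 to 275 CPM in juvenile and 769 to 932 CPM in adult libraries, and their part was not tested. Notch3 was 457, 491, 584 and 372 CPM against 515, 669.9 and 614, with overlap, at −0.44 ± 0.16 (SE, adjusted p = 0.0257). Its call was lost without that cluster (−0.19, adjusted p = 0.41), and without Juvenile 4, Adult 2, Adult 3, Aged 2, EAE 1 or EAE 2 (range −0.54 to −0.35), and with the close pairs summed (adjusted p = 0.337). In pericytes 2 of 5 members tested passed in juvenile mice, against 39.4% of genes, and 0 in aged and EAE mice, against 0.208% and 3.33% (1 and 1 at an unadjusted p under 0.05 in edgeR, 0 and 0 by DESeq2). In smooth muscle 0 of 4 passed in any contrast in edgeR or DESeq2, nor at an unadjusted p under 0.05, where 18.9%, 0.0487% and 0.730% of genes passed.

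In astrocytes 1 member passed, Jag1, which was lower in juvenile mice at low counts. Notch3 was 47.1, 39, 43.2 and 33.8 CPM in juvenile astrocytes, 13.2, 16.1 and 18.3 in adult (5, 1 and 1 UMIs) and 5.71 and 8.05 in aged (2 and 3 UMIs), and no UMI was found in EAE, which allows up to 30.3 and 31.4 CPM. The juvenile libraries were all above the adult ones, at 1.33 ± 0.51 (SE, adjusted p = 0.0719), and the threshold was missed. Jag1 was 25.5, 20.5, 18.2 and 18 CPM in juvenile astrocytes and 23.8, 177 and 36.6 in adult ones, where the highest value came from 11 UMIs of 20 cells, with log2 fold change −1.41 ± 0.49 (SE, adjusted p = 0.0465). EC markers in astrocytes summed to 265 to 485 CPM in juvenile and 1269 to 3484 CPM in adult libraries, and their part was not tested. Without Adult 2, the library with the highest value, the log2 fold change was the smallest of a range of −2.5 to −0.50, and the call was also lost without Adult 3 or Juvenile 2, 3 or 4. It was lost as well with RLE factors, library totals (adjusted p = 0.0946), no filter on low counts, only the conditions compared, doublets left out, the replicate block or the close pairs summed (adjusted p = 0.064). With library totals 2 other members passed, both higher in juvenile astrocytes. Hey1 was 0.68 ± 0.29 (SE, adjusted p = 0.108) in juvenile astrocytes. Of 6 members tested, 1, 0 and 0 passed in juvenile, aged and EAE astrocytes, against 14.2%, 0.597% and 2.58% of genes, the counts by DESeq2 being the same. At an unadjusted p under 0.05 edgeR gave 4, 0 and 2. The median log2 fold changes of these 6 were −0.16, −0.33 and −0.92, against 0.0036, 0.02 and −0.05 over all genes.

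Whether a change differed between cell types was tested as the interaction of cell type and condition with library as a block, the log2 fold change in ECs being subtracted. Against mural cells 4 of 10 members passed in juvenile mice, where 8.14% of genes did, 0 in aged, where 0.165% did (3 at an unadjusted p under 0.05 in edgeR), and 1 in EAE, where 1.98% did. Dll4 in mural minus ECs was −2.03 ± 0.53 (SE, adjusted p = 0.00466), Notch4 −1.51 ± 0.44 (SE, adjusted p = 0.0134), Notch1 −1.42 ± 0.43 (SE, adjusted p = 0.0215) and Notch3 1.05 ± 0.33 (SE, adjusted p = 0.0364) in juvenile mice. Hey1 was 1.69 ± 0.47 (SE, adjusted p = 0.0296) in EAE, where most of its mural UMIs lay in cells set aside or given no subtype, as shown above. Dll4 in mural cells was 17.4, 14.1 and 27.7 CPM in adult and 1.9, 5.86, 8.55 and 7.23 in juvenile libraries, levels far under those of ECs and beside the EC marker sums given above. Smooth muscle had medians over libraries of 1.98 CPM for Dll4 and 6.66 for Notch1, against 10.7 and 24.4 in pericytes. The part of the mix of mural subtypes given above in these differences was not tested. For Notch3 the change was −1.19 ± 0.45 in ECs and −0.18 ± 0.16 in mural cells, and the mural markers in ECs, which were lower in juvenile libraries as given above, were not tested for their part. Against astrocytes, 2 of 10 passed in juvenile mice, where 7.40% of genes did, and 0 in aged and EAE, where 1.09% and 1.72% did (1 and 1 at an unadjusted p under 0.05 in edgeR). These were Notch3, at 3.16 ± 0.70 (SE, adjusted p = 0.000297), and Jag1, at −1.62 ± 0.43 (SE, adjusted p = 0.00478). Calls against mural cells in juvenile mice were lost without Juvenile 1 or Adult 1, for Notch1 also without Juvenile 2, for Notch3 also without Juvenile 3 or 4, and for Notch4 also without Adult 2. Those against astrocytes were lost without Adult 1 (Notch3) or Adult 2 (Jag1). The ranges were −2.26 to −1.59, −1.79 to −1.27, −1.56 to −1.16, 0.68 to 1.5, 2.38 to 3.56 and −2.43 to −0.91, in the order of the genes above. Hey1 was lost without Adult 1, Adult 2 or an EAE library (range 1.27 to 2.16) and with the close pairs summed (adjusted p = 0.0533), whereas the 6 juvenile calls passed with the pairs summed.

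Hes1 passed as lower in ECs, in several EC subtypes and in cells outside the vessel wall, some of which had no other member tested. In venous ECs it was 1049.9, 892, 1089 and 827 CPM in juvenile libraries, 2153 and 2167 in Adult 2 and 3, 784 and 994 in aged and 552 and 670.1 in EAE libraries, so that both adult libraries were above all others. The log2 fold changes in venous ECs were −1.14 ± 0.11 (SE, adjusted p = 2.89e-11), −1.32 ± 0.13 (SE, adjusted p = 1.6e-09) and −1.71 ± 0.13 (SE, adjusted p = 9.91e-14), and they passed without any single library. Adult 2 and 3 were close to each other and the only adult venous libraries, so that the adult side had no replicate once the close pairs were summed. In CapA ECs Hes1 was −1.20 ± 0.31 (SE, adjusted p = 0.024) in juvenile and −1.47 ± 0.37 (SE, adjusted p = 0.0222) in EAE mice, and in CapV ECs −1.52 ± 0.41 (SE, adjusted p = 0.0261) in EAE (the CapV call being lost with the close pairs summed, adjusted p = 0.405), whereas arterial ECs gave −0.62 ± 0.41 (SE, adjusted p = 0.47). The adult libraries were themselves far apart in CapA ECs, at 716, 2232 and 2243 CPM for Adult 1, 2 and 3. The CapA and CapV calls were lost without Adult 2, Adult 3, EAE 1 or EAE 2, the CapA calls also without an aged library, and the juvenile CapA call without Juvenile 3 or 4 (ranges −1.46 to −1.01, −1.73 to −1.28 and −1.84 to −1.31). Immediate early genes differed between libraries too. A list of 10 of them summed to 5125, 12289 and 12599 CPM in the ECs of Adult 1, 2 and 3, 3827 to 4995 in juvenile, 9919 and 9989 in aged and 9261 and 9428 in EAE ECs. Of the 10, 8 passed as lower in juvenile ECs, 0 in aged and 0 in EAE ECs. In CapA ECs 10 passed as lower in juvenile, 3 in aged and 5 in EAE mice. In CapV ECs 8, 0 and 1 did, and in venous ECs 10, 2 and 2 did, with 3 higher in aged and 3 in EAE mice. Without the CapA cluster led by these genes, the juvenile CapA change in Hes1 was −0.79 (adjusted p = 0.0708) and the EAE change −1.46 (adjusted p = 0.0119). In venous ECs the list summed to 5002 to 5843 CPM in juvenile, 20588 and 21266 in adult, 20094 and 20572 in aged and 16982 and 19317 in EAE libraries. Its part in the Hes1 values was otherwise not tested.

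**Figure D4:**
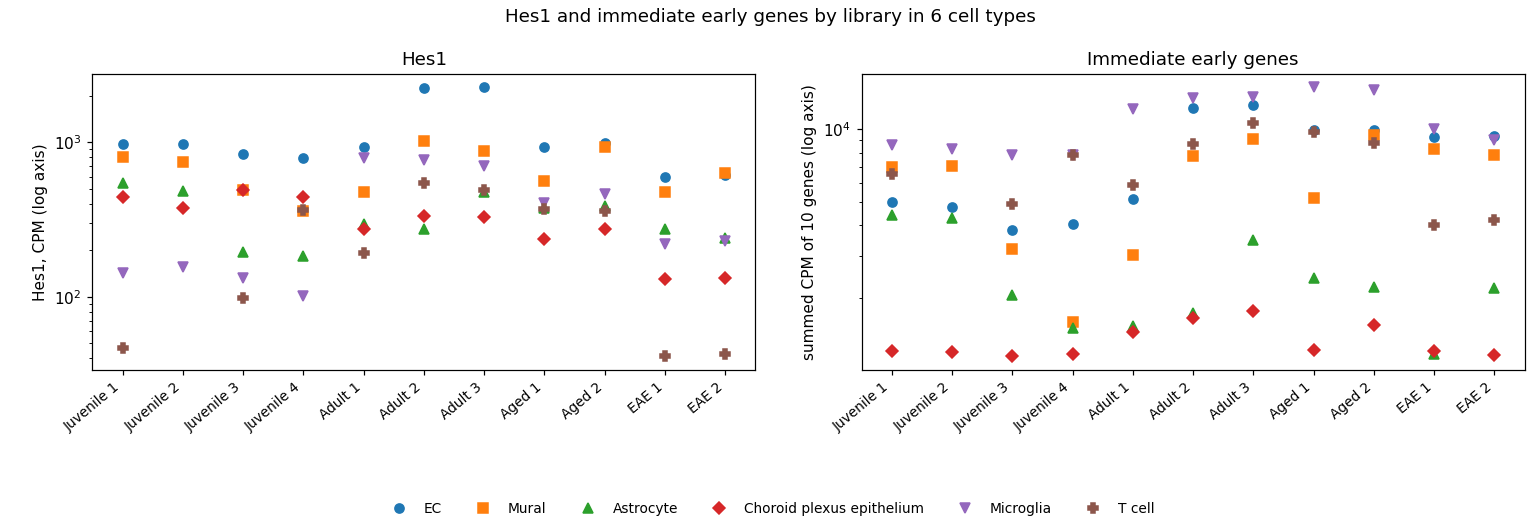
Hes1 (left) and the sum of 10 immediate early genes (right), both in CPM on log axes, in 6 cell types of each library, without the types that had fewer than 10 cells there. Hes1 in ECs was highest in Adult 2 and 3, where the immediate early sum in ECs was highest as well, and Hes1 in microglia was highest in the 3 adult libraries.

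Hes1 was lower in EAE in cells outside the vessel wall as well. In microglia it was 143, 156, 132 and 101 CPM in juvenile, 792, 770.2 and 705 in adult, 408 and 464 in aged and 220.3 and 231 in EAE libraries, and the groups did not overlap. The log2 fold changes were −2.51 ± 0.12 (SE, adjusted p = 1.59e-10), −0.75 ± 0.14 (SE, adjusted p = 0.00672) and −1.52 ± 0.15 (SE, adjusted p = 3.18e-07). The immediate early list in microglia summed to 7796 to 8654 CPM in juvenile, 12103 to 13617 in adult, 14606.5 and 14941 in aged and 9071 and 10030.5 in EAE libraries. In choroid plexus epithelium Hes1 was 276, 334 and 330.5 CPM in adult and 131 and 132 in EAE libraries, at −1.40 ± 0.14 (SE, adjusted p = 1.19e-07). Juvenile libraries were higher than adult, at 0.30 ± 0.11 (SE, adjusted p = 0.0202). Of the immediate early genes there, 8 of 10 passed as lower in EAE and 6 as lower and 2 as higher in juvenile mice, with sums of 1448 to 1758 CPM in adult, 1160 and 1207 in EAE and 1148 to 1211 in juvenile libraries. T cells gave −3.30 ± 0.60 (SE, adjusted p = 0.00656), B cells −2.25 ± 0.45 (SE, adjusted p = 0.00289) and monocytes or macrophages −1.90 ± 0.53 (SE, adjusted p = 0.0328) in EAE, where 21.7%, 21.1% and 28.2% of genes passed. Hes1 was 193, 549.8 and 493 CPM in adult and 41.3 and 42.6 in EAE T cells. Adult libraries gave 43, 51 and 45 T cells against 923 and 863 in EAE. For monocytes or macrophages the counts were 28 and 33 against 1010 and 925. The paper reports infiltrating lymphocytes and activated macrophages as enriched in EAE. A change within cells and a change in which cells were present therefore cannot be told apart in these types. The immediate early list was lower in EAE as well in T cells (4031 and 4218 CPM against 5865 to 10594 in adult) and B cells (3282 and 4472 CPM against 4903 to 6751). In monocytes or macrophages it was 8037 and 8050 CPM in EAE, within the adult range of 7417 to 8277 CPM. The choroid plexus markers were lower in EAE than in adult libraries in each of these types, at 6315 and 6624 against 16560 to 46080 CPM in T cells, 6831 and 6947 against 16950 to 51155 in B cells, 4845 and 6152 against 14997 and 15228 in monocytes or macrophages, and 8111 and 10903 against 22426 to 56806 in microglia. Their part in the Hes1 values was not tested. Calls in these types were followed through the alternatives as counts only, so that the ones lost are not named. Fewer libraries had enough of these cells: juvenile mice gave 3 libraries of T cells, 2 of B cells and 3 of monocytes or macrophages, and adult mice 2 of monocytes or macrophages, Adult 2 and 3, which were close to each other. Hemoglobin genes stood apart in B cells of EAE 2 as well, at 40574 CPM against 74.6 in EAE 1 and 276 to 3037 in adult libraries, and their part was not tested. Oligodendrocytes gave −1.59 ± 0.53 (SE, adjusted p = 0.0254) in juvenile mice, where 44.0% did, with 2 juvenile libraries (Juvenile 1 and 2, of 18 and 28 cells), which were close to each other, against 3 adult ones. In the other contrasts of these types no member passed in edgeR: Hes1, the one member tested, was the only candidate in B cells (background 4.26% in juvenile and 0.396% in aged mice), T cells (4.61% and 0.846%), monocytes or macrophages (4.56% and 4.47%) and aged oligodendrocytes (0.183%). Neurons or neuroblasts, with 1 member tested, had no call in juvenile, aged or EAE mice (background 4.77%, 0% and 0.727%). Fibroblast-like cells had none of 2 (background 5.66%, 0.0294% and 4.67%), and perivascular macrophages none of 2 (background 11.5%, 3.94% and 20.6%). At an unadjusted p under 0.05 edgeR gave 1 member in B cells in juvenile and in aged mice, 1 in aged oligodendrocytes, 0 in T cells and in monocytes or macrophages, 1 in neurons or neuroblasts in EAE, 0 in fibroblast-like cells, and 1, 1 and 2 in perivascular macrophages.

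The other members in microglia and choroid plexus were at low levels. In microglia 3, 1 and 4 of 6 members tested passed in juvenile, aged and EAE mice, against 25.3%, 3.0% and 27.0% of genes. Notch4 in microglia was 2.42, 5.54, 4.1 and 4.95 CPM in juvenile, 4.6, 18 and 26.7 in adult, 9.82 and 13.1 in aged and 26.2 and 31.6 in EAE libraries, at −1.76 ± 0.48 (SE, adjusted p = 0.0147) in juvenile and 1.24 ± 0.39 (SE, adjusted p = 0.0284) in EAE. The adult libraries were far apart, and Adult 1 was within the juvenile range. EC markers in microglia summed to 185 to 212 CPM in juvenile, 835 to 1055 in adult, 610 to 898 in aged and 382 to 447 in EAE libraries, and were lower in EAE than in adult libraries. Dll4 in microglia was −1.58 ± 0.51 (SE, adjusted p = 0.0291) in juvenile and −1.54 ± 0.55 (SE, adjusted p = 0.0451) in EAE, at 0.989 to 11.3 CPM, and Hey1 was −1.85 ± 0.49 (SE, adjusted p = 0.00888) in EAE. In choroid plexus epithelium 7, 0 and 3 of 9 members passed, against 60.7%, 2.43% and 38.1% of genes. There Hey2 was 26.9, 25.6, 19.4 and 19.2 CPM in juvenile and 15.2, 9.2 and 11.4 in adult libraries, at 0.65 ± 0.17 (SE, adjusted p = 0.00178). The 5 members that fell in juvenile mice were Dll4, Jag2, Notch1, Notch4 and Notch3, with log2 fold changes of −2.12 ± 0.36, −1.30 ± 0.35, −1.16 ± 0.27, −0.92 ± 0.30 and −0.46 ± 0.20. In EAE, Dll4 with −1.98 ± 0.42 (SE, adjusted p = 0.00133) and Jag2 with −1.0 ± 0.40 (SE, adjusted p = 0.0492) were lower beside Hes1. EC markers there summed to 144 to 239 CPM in juvenile, 988 to 1133 in adult and 382 and 514 in EAE libraries, and their part was not tested.

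The rest of the pathway was taken from a list of 45 genes: other ligands, modulators, cleavage enzymes, the nuclear complex and further targets. In ECs 40 were tested, of which 7 rose and 14 fell in juvenile mice, 1 rose and 0 fell in aged mice, and 8 rose and 7 fell in EAE, where 48.1%, 9.42% and 32.2% of all genes passed in either direction, with median log2 fold changes of −0.06, −0.13 and −0.09. In juvenile ECs the largest changes were in Hes5, a target (2.28 ± 0.73, adjusted p = 0.0253), Aph1c, a subunit of gamma-secretase, the complex that cleaves Notch (−1.99 ± 0.32, adjusted p = 0.000186), and Nrarp, a target that feeds back on the pathway (1.48 ± 0.26, adjusted p = 0.00147). The 7 astrocyte markers summed to 203 to 226 CPM in juvenile ECs and to 190, 106 and 101 CPM in those of Adult 1, 2 and 3, none of them at 0, and their part in the Hes5 value was not tested. Aph1b, another gamma-secretase subunit, was the gene that rose in aged ECs (1.23 ± 0.17, adjusted p = 0.00094), and it rose in EAE as well (1.20 ± 0.17, adjusted p = 0.000156). Lfng, a glycosyltransferase that alters which ligand a receptor answers to, fell most in EAE ECs (−1.49 ± 0.14, adjusted p = 3.01e-06), followed by Maml2, a co-activator of the nuclear complex (−0.89 ± 0.09, adjusted p = 6e-06). In mural cells 23 were tested, 1 rising and 5 falling in juvenile mice, 0 and 0 in aged, and 0 and 1 in EAE, against 29.2%, 0.0347% and 5.21% of all genes. The gene that rose in juvenile mice was Dlk1, a non-canonical ligand (adjusted p = 0.00157), with 97, 125, 26 and 9 UMIs in the juvenile libraries and 0 in each adult one, so that no fold is given. Those that fell most were Snw1 (−1.93 ± 0.35, adjusted p = 0.000645) and Ep300 (−1.61 ± 0.52, adjusted p = 0.0293), both cofactors of the nuclear complex. In EAE it was Dtx3 (−0.76 ± 0.21, adjusted p = 0.0445). In astrocytes 32 were tested, and the target genes Hes5 (1.09 ± 0.19, adjusted p = 3.84e-05) and Nrarp (0.89 ± 0.23, adjusted p = 0.00449) rose in juvenile mice, none in aged, and Lfng (0.99 ± 0.27, adjusted p = 0.0252) in EAE, against 14.2%, 0.597% and 2.58% of all genes.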

How the data were processed

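Cells of myelin-depleted mouse cortex were sequenced with 10x Genomics 3′ chemistry in 11 libraries. The authors deposited UMI counts per gene and cell, and the submitters' processing notes name STAR 2.5.3a, UMI-tools 0.5.3, featureCounts 1.6.1 and mm10. A 3′ count does not allow levels of different genes to be compared. Cells with 500 to 6000 genes and under 25% mitochondrial UMIs and genes in at least 3 cells were kept, the cells were clustered with Seurat 5.3.0 (resolution 0.5) with the members and the pathway list left out, and clusters were named from marker lists. Doublets were called with Scrublet in scanpy 1.11.5 (1.616% of cells), and clusters in which they made up 25% or more were set aside. Clusters in which all markers of another type were also detected, with a high score, were set aside too. ECs and mural cells were clustered again for subtypes, and mural cells set aside at this step stayed in the mural sums.

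UMIs were summed per library and cell type where at least 10 cells were present. Summed counts of the 11 libraries entered edgeR 4.0.16 (R 4.3.3; TMM factors, filterByExpr, robust quasi-likelihood fit), in place of the study's Wilcoxon test over cells, since cells are not replicates. The fit pooled all 4 conditions, and calls had an adjusted p under 0.05. CPM were taken on plain library totals of the cell type, without TMM factors. The members and gene lists were chosen with earlier results of these data known. The 10 members were named throughout, up to 3 pathway genes with the largest called change per contrast in ECs, mural cells and astrocytes, and the 3 genes most correlated with each member. On simulated counts, the shares of 200 genes changed 2-fold that were recovered in juvenile, aged and EAE mice were 88%, 77% and 76% in ECs (13255, 13221 and 13253 genes), 72.9%, 46.5% and 36.5% in mural cells (5491, 5318 and 5559) and 33.5%, 22% and 5.5% in astrocytes (7349, 7376 and 7394), with 199 of the 200 tested in juvenile mural cells and taken as the base there. The interaction of mural cells and ECs in juvenile mice recovered 25% (13012). Every simulated gene had the same dispersion, and changed genes had an expected count of at least 10 in a median library. These shares can therefore overstate what was recoverable for members with lower counts or a larger spread between libraries. Alternatives were DESeq2 1.42.0, RLE factors, plain library totals, no filter on low counts, a replicate block, only the conditions compared, doublets left out, resolution 0.9, close library pairs summed and each library left out. After the data were seen, 3 further choices of cells and the library totals were added. UMI shares were computed with cells thinned to 1500 UMIs, leaving out shallower cells. Intervals and the limit that 0 UMIs allows (3 UMIs) cover counting error only.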

Additional observations from a re-analysis of the deposited data

Results flagged for a closer look

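A sample stood apart within its group for 3 of 83 groups of 4 libraries, where chance gives about 1 in 20. Hey2 in mural cells was 61.4 CPM in Juvenile 4, below the other juvenile libraries. Dll4 in CapA ECs was 120.0 CPM in Juvenile 3, the lowest of its group, and Hes1 in CapA ECs was 923 CPM in Juvenile 1, the highest.

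A change that differed between cell types by the interaction test was found for 7 combinations, given as the log2 fold change in the second cell type minus that in ECs. In juvenile against adult mice, mural cells differed from ECs by −1.42 for Notch1, 1.05 for Notch3, −1.51 for Notch4 and −2.03 for Dll4. Astrocytes differed from ECs by 3.16 for Notch3 and −1.62 for Jag1 in the same contrast. In EAE against adult mice, mural cells differed from ECs by 1.69 for Hey1. Neither pericytes nor smooth muscle showed EAE libraries apart from adult ones for this gene, as given with the results. EC marker transcripts in mural cells and astrocytes and mural marker transcripts in ECs differed between the conditions too, as given with the results, and their part was not tested. Nor was the part of the mix of mural subtypes, which also differed.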

How the results depend on the processing

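The fits as reported gave 9 calls in ECs, 32 in subtypes, 22 in other cell types, 1 in mural cells and 1 in astrocytes. With the close library pairs summed there were 0 in ECs, 14 in subtypes, 10 in other cell types and 0 in astrocytes. Astrocytes also had 0 calls with RLE factors, without a filter on low counts, with only the 2 conditions compared, with doublets left out and with the replicate block, and 2 with library totals. Calls followed singly were lost in other types too. In all, 4 of 10 were lost with only the 2 conditions compared and 3 of 11 with doublets left out. The losses were 6 of 43 without the filter, 1 of 11 at resolution 0.9 and 1 of 43 with RLE factors. Mural cells, with 1 call, had 3 without the filter and 2 with the replicate block, and subtypes had 18 calls in DESeq2. Leaving out 1 library at a time gave 5 to 9 calls in ECs, 16 to 39 in subtypes, 0 to 2 in mural cells, 0 to 1 in astrocytes, 16 to 28 in other types (counted only, not by gene) and 4 to 11 differences between cell types. Thinned to 1000 UMIs, the median share of ECs with a UMI was 9.50% for Dll4 (13.4% at 1500) and 8.79% for Hey1 (12.5%), and of mural cells 37.5% for Notch3 (48.3%). Of the calls in ECs, mural cells, astrocytes, subtypes and interactions, none changed direction under an alternative run for it, and the 22 calls in other types were followed as counts only. With library totals 8 of 43 calls were lost: Jag1 in juvenile ECs, juvenile astrocytes and EAE CapA ECs, Hey1 in aged arterial, EAE CapA and EAE CapV ECs, Notch4 in EAE CapV ECs and Notch3 in juvenile pericytes. Among choices of cells added after the data were seen, ECs of named subtypes alone lost 3 of 9 EC calls, CapA ECs without the cluster led by immediate early genes 4 of 13 results, and pericytes without the cluster mostly of juvenile libraries 1 of 1. A condition left with 1 library or 1 summed unit was assumed to vary like the other groups.

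The replicate numbers gave no sign of paired samples: of 13 same-numbered EC pairs, 0 had a correlation of deviations over 0.1. Deviations in a group of 2 libraries mirror each other, so that these correlations are not independent and the check cannot exclude pairing. With the block, 15 of 43 calls were lost, among them Hes1 in juvenile ECs (adjusted p = 0.062) and Dll4 in aged ECs (adjusted p = 0.052). TMM shifted the median of all genes against library totals by 0.16 on the log2 scale in EAE ECs and 0.23 in EAE microglia. Of 22 fits with at least 100 calls, 10 moved their share of higher calls by over 10 percentage points between these scalings. In EAE ECs 2326 genes were higher and 2110 lower with TMM, against 1519 and 3262 with library totals.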
